A study of Mus musculus with 20 samples.

Results

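The 38 genes described here encode the machinery that copies DNA and divides the cell, together with the cyclins and inhibitors that gate entry into the cycle. They were taken by gene symbol from the gene counts of 20 RNA-seq libraries of mouse CD4 T cells, and each symbol matched 1 of the 39179 gene IDs counted. They fall into 14 replication genes, 4 genes of entry from G1 into S phase (called G1/S genes below), 16 mitotic genes, 2 D-type cyclins and 2 inhibitors of cyclin-dependent kinases. The mitotic group holds genes of G2 and mitosis, the growth marker Mki67 and the topoisomerase gene Top2a among them.

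A T cell that leaves quiescence makes D-type cyclins, whose kinases inactivate the RB family and free E2F factors to turn on G1/S and replication genes. Replication origins are licensed when Cdc6 and Cdt1 load the helicase made of Mcm2 to Mcm7, and Cdc45 and the GINS complex then activate it. Later in the cycle the MuvB complex with B-Myb and FoxM1 drives the mitotic genes, chiefly through the CHR element. In quiescent cells the DREAM complex holds the same genes off. Their promoters often hold CCAAT boxes as well. In T cells the inhibitor Cdkn1b (p27) is a hallmark of quiescence, and Cdkn1a (p21) is induced by activation and by p53.

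All cells carried a reporter that places Thy1.1 under control of the IL-17F gene (Il17f), so that Thy1.1 marks cells of the Th17 lineage, on the C57BL/6 strain. In the transfer part of the study, wild-type (CD45.1) and Il6ra-/- (CD45.2) T cells had been cultured for 6 days with anti-CD3, antibodies to IFN-g and IL-4, TGFb at 2.5 ng/ml, hyper-IL-6 at 20 ng/ml and irradiated antigen-presenting cells. Hyper-IL-6 joins IL-6 and its soluble receptor in 1 protein and so also acts on cells that lack their own IL-6 receptor. Part of the sorted Thy1.1+ cells gave the libraries before transfer (2 per genotype), and both genotypes were placed together into Rag1-/- mice, which lack T and B cells of their own. After 4 weeks, live CD4+ TCRb+ cells were sorted from the colon by CD45 allele and pooled (3 libraries per genotype). The colon sort used no Thy1.1 gate, so the stages differ in the sorted population as well as in time and site. Library number 0 belongs to experiment 1, and numbers 1 and 2 belong to experiment 2. For the culture part, naive cells from wild-type mice heterozygous for the reporter and from IL6Ra-/- reporter mice (2 libraries each) were compared with Thy1.1+ cells after 6 days of culture. These cultures had TGFb at 2.5 ng/ml and either IL-6 at 20 ng/ml (wild type) or hyper-IL-6 at 63 ng/ml (wild type and IL6Ra-/-), 2 libraries each, and for all 10 libraries of this part the labels list phorbol ester and ionomycin for 4 h before the sort. No ages of the mice are known here.

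Gene counts per library summed to 12718633 to 23745060 in the transfer part and 20160774 to 46848016 in the culture part. All 6 CD4 T cell markers were detected in every library. In the colon libraries, 8 epithelial markers summed to 116 to 514 CPM (counts scaled to a common library total), against 9.36 to 37 CPM before transfer, and 9 myeloid markers to 97.1 to 410 against 15.5 to 58.9 CPM. Markers of CD8, NK and gamma-delta T cells (6 genes) summed to 148 to 326 against 42.3 to 103 CPM and 5 erythroid markers to 4.77 to 11.6 against at most 0.0991 CPM, while the B cell markers summed to at most 2.2 CPM in the colon. Il6ra, the targeted gene, was counted in the colon at 2.53 to 4.85 CPM in the 3 Il6ra-deficient libraries and at 4.32 to 10.7 CPM in the 3 wild-type ones, and before transfer at 80.6 and 123 against 72.8 and 84.2 CPM. In the culture part it stood at 199 and 213 CPM in naive Il6ra-deficient cells, at 270 and 421 CPM in naive wild-type cells, and at 30.6 to 39.8 CPM in all cultured libraries. The count spans the whole gene and the labels do not say which exons were deleted, so it does not check the genotype labels. A pair of wild-type libraries stood apart from their replicates. Replicate 1 before transfer had 3.12% of its counts in ribosomal protein genes, against 1.12% in its mate, and replicate 2 from the colon had 4.28% in mitochondrial genes, against 2.27% and 2.16%. Deviations of this pair from their replicates also went with exon length (Pearson r with log2 length). It was -0.76 over the 16 mitotic genes and -0.39 over 12236 genes before transfer, and 0.59 and 0.16 in the colon. In a group of 2 libraries each deviates from the other alone, so the mate before transfer had 0.76 and 0.39. The value before transfer thus cannot say which of the 2 libraries stands apart. Other groups showed such a relation too, such as Il6ra-deficient cells with hyper-IL-6 (0.64 and 0.28 in replicate 1, with opposite signs in replicate 2). The comparisons that use this pair are also given without both, an alternative chosen after seeing the data.

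The promoters are shown because the mitotic and replication groups differ in which motifs their windows hold. RefSeq windows on GRCm38.p6 of 250 bases before to 50 bases after the start were at hand for 30 of the 38 genes and for 27025 genes in all. They were searched on both strands for the CHR (TTTGAA), the CCAAT box (CCAAT) and E2F sites (TTTGGCGC, TTTCCCGC, TTTCGCGC or TTTGCCGC). In the windows of the 38 genes, 1 pair of sites of different motifs shared bases. The CHR lay in 9 of 12 mitotic windows (75%) and 2 of 12 replication windows (16.7%), against 20.2% of all windows of this length. A CCAAT box lay in 11 of 12 mitotic windows (91.7%) and 9 of 12 replication windows (75%), against 41.1% of all. An E2F site lay in 1 of 12 mitotic windows (8.33%), that of Cdk1, and 6 of 12 replication windows (50%), against 2.6% of all. Both CHR and CCAAT box lay in 75% of the mitotic windows, 16.7% of the replication windows and 7.97% of all. These are matches of letters, no binding was measured, and motifs were not related to fold changes. Bub1, Ccnb1 and Birc5 are mitotic genes with no CHR in the window. The mitotic promoters, chosen because their genes are followed through the results, are printed first, then the promoters of a pair of helicase genes. Each is printed 5′ to 3′ on the gene's strand, and capitals mark the sites, where 2 E2F sites that overlap on opposite strands appear as 1 longer run.
Cdk1 (chr10:69352913-69353062, minus strand, 150 to 1 bases before the start): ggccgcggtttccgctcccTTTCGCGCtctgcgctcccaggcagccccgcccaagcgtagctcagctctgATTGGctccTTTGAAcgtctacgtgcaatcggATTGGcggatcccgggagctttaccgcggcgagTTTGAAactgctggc
Mki67 (chr7:135716469-135716579, minus strand, 200 to 90 bases before the start): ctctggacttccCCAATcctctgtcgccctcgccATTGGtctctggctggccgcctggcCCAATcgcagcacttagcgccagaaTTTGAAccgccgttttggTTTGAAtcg
Kif11 (chr19:37376322-37376381, plus strand, 60 to 1 bases before the start): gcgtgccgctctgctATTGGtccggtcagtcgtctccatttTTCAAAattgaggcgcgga
Cdc20 (chr4:118437344-118437413, minus strand, 70 to 1 bases before the start): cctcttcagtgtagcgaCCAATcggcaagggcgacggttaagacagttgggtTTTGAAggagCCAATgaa
Mcm5 (chr8:75109349-75109494, plus strand, 160 to 15 bases before the start): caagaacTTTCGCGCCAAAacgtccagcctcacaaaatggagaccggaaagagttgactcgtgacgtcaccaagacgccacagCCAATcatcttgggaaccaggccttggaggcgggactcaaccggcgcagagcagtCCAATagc
Mcm6 (chr1:128359706-128359825, minus strand, 120 to 1 bases before the start): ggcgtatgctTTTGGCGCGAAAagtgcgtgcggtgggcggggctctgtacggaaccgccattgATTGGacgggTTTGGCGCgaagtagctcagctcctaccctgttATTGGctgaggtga

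The first question was how far the cycle genes of Th17 cells in culture stood above those of naive cells. Nearly all rose: in wild-type cells with hyper-IL-6, 35 of the 38 were higher and 2 were lower than in naive cells, in wild-type cells with IL-6 also 35 and 2, and in Il6ra-deficient cells with hyper-IL-6 36 and 2 (edgeR's quasi-likelihood test, Benjamini-Hochberg adjusted p under 0.05). Culture changed most of the transcriptome: the same calls took in 70.3%, 70.6% and 72% of the 14926 genes tested, with 36.8%, 37% and 37.5% higher and 33.5%, 33.6% and 34.4% lower. The median log2 fold change of the 16 mitotic genes was 5.49, 5.44 and 5.94 in these comparisons in that order, that of the 14 replication genes 2.46, 2.44 and 2.54, and that of all genes 0.04, 0.05 and 0.04. The wild-type comparisons share their naive libraries. In bulk RNA, fewer cells in cycle and less of these RNAs per cell cannot be told apart, here and in every comparison below.

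**Figure D1:**
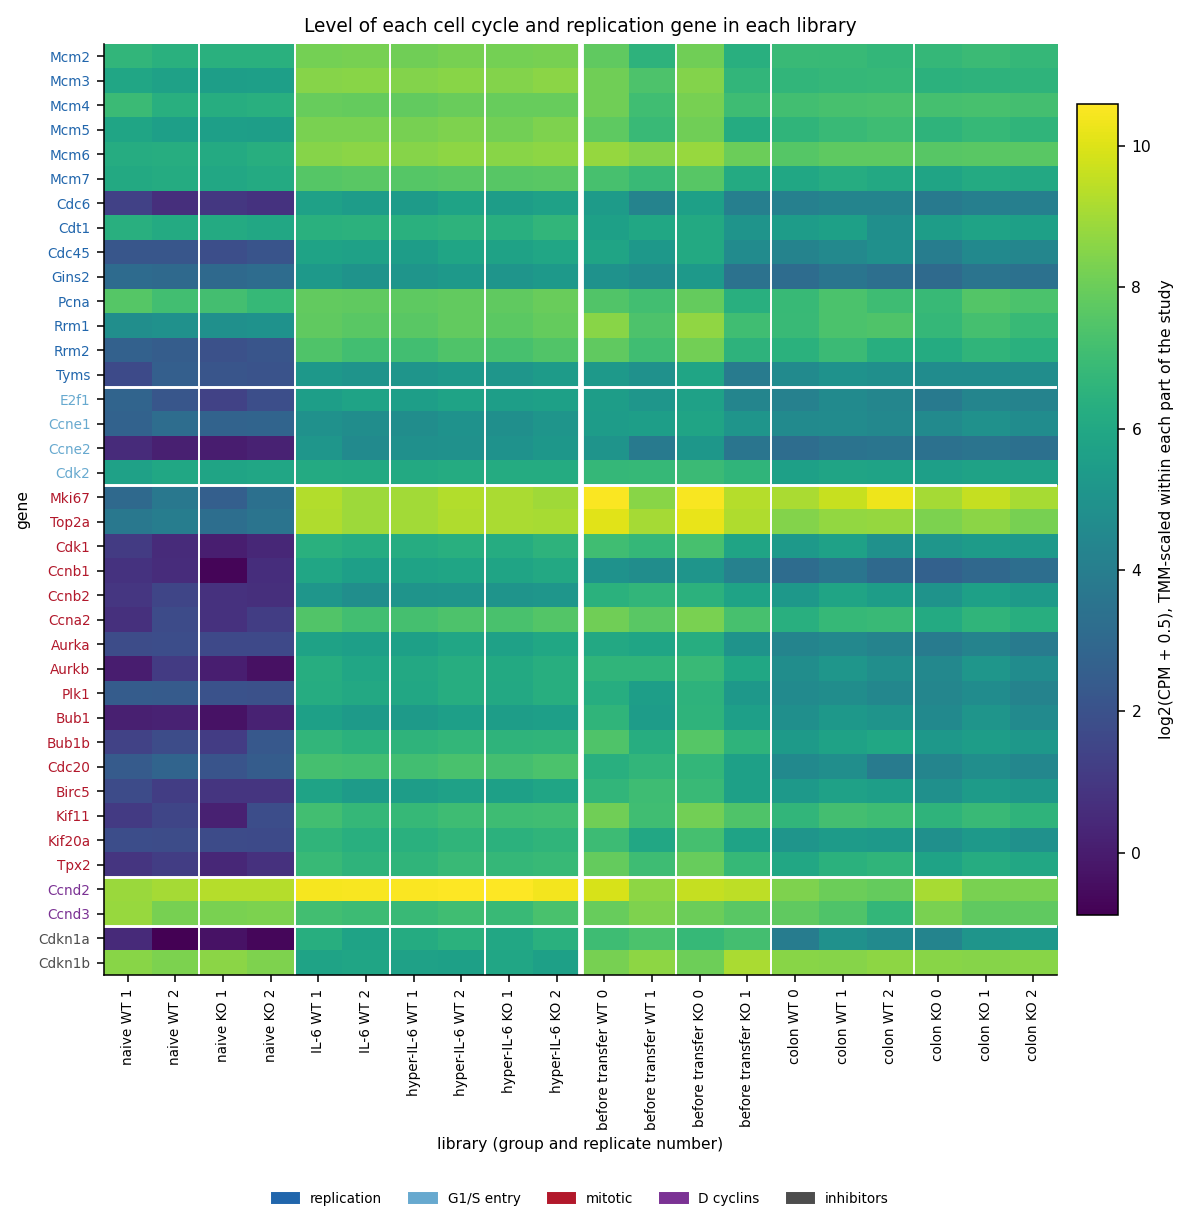
Each cell gives the level of 1 of the 38 genes (rows, names coloured by role) in 1 of the 20 libraries (columns, by group and replicate number) as log2(CPM + 0.5), scaled by TMM within each part of the study; the thick white line parts the culture libraries (left) from the transfer libraries (right). The mitotic rows are dark in the 4 naive libraries, where they lay between 0.103 and 15.4 CPM, while Cdkn1b and Ccnd3 are brighter there than in the cultured libraries.

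Naive cells held the RNAs of the replication helicase. Mcm2 to Mcm7, its 6 subunits, lay between 46.0 and 124 CPM over the 4 naive libraries and between 187 and 402 CPM over the 6 cultured ones. Mcm2 was at 102 and 84.4 CPM in naive wild-type cells and 85.4 and 84.3 CPM in naive Il6ra-deficient cells, and at 280 and 304 CPM in wild-type cells with hyper-IL-6. Its log2 fold change there was 1.65 ± 0.10 (SE, n = 2 libraries per group, adjusted p = 1.17e-07). Mcm3 rose by 2.72 ± 0.11, from 60.6 and 50.3 to 352 and 377 CPM. No Mcm gene's naive and cultured libraries overlapped in wild-type cells with hyper-IL-6, and neither did those of the other members (84.8% of all genes tested did not overlap, 44.3% higher in culture). The sliding clamp gene Pcna and the licensing factor gene Cdt1 moved least. Pcna went from 188 and 137 to 217 and 230 CPM in wild-type cells with hyper-IL-6 (log2 fold change 0.46 ± 0.16, adjusted p = 0.0218). Cdt1 was at 82.5 and 68.8 CPM in naive wild-type cells and at 84.3 and 93.4 CPM with hyper-IL-6 (0.23 ± 0.13, adjusted p = 0.141), so it was the 1 gene that did not pass in the wild-type comparisons. In Il6ra-deficient cells Cdt1 passed, with 70.9 and 62.7 CPM naive and 81.3 and 103 CPM cultured (0.46 ± 0.13, adjusted p = 0.0096).

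Cdc6 and Rrm2 rose most of the replication genes. Cdc6, the loader that works with Cdt1, was at 2.0 and 1.1 CPM in naive wild-type cells and at 42.7 and 54.3 CPM with hyper-IL-6, a log2 fold change of 4.98 ± 0.24. Rrm2, the regulated subunit of ribonucleotide reductase, went from 5.86 and 5.21 to 141 and 172 CPM (4.82 ± 0.17). Its partner subunit Rrm1 went from 27.6 and 29.8 to 204 and 226 CPM (2.90 ± 0.11). Cdc45, the helicase activator, rose by 3.65 ± 0.16, Tyms, the thymidylate synthase, by 3.09 ± 0.25, and Gins2, a GINS subunit, by 2.18 ± 0.15. In wild-type cells with hyper-IL-6, the licensing genes Cdc6 and Cdt1 thus lay at opposite ends of the replication group.

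All 4 G1/S genes rose in each of the 3 comparisons. Ccne2 (cyclin E2) was at 0.929 and 0.593 CPM in naive wild-type cells and at 28.6 and 30.1 CPM with hyper-IL-6 (log2 fold change 5.28 ± 0.27). Ccne1 (cyclin E1) rose by 1.92 ± 0.18, and E2f1, the activating E2F factor, by 3.25 ± 0.21, from 6.50 and 4.07 to 46.3 and 53.6 CPM. Cdk2, the kinase of cyclin E, was at 50.6 and 62.0 CPM in naive cells and moved least (0.30 ± 0.11, adjusted p = 0.027).

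Every mitotic gene rose in all 3 comparisons. Ccna2 (cyclin A2) was at 1.12 and 2.88 CPM in naive wild-type cells and at 147 and 166 CPM with hyper-IL-6, the largest log2 fold change of the group at 6.25 ± 0.29. Bub1, a kinase of the spindle checkpoint, rose by 6.13 ± 0.23 from 0.586 and 0.678 to 41.3 and 48.0 CPM. Tpx2, which nucleates spindle microtubules and activates Aurora A, rose by 6.10 ± 0.19 from 1.37 and 1.78 to 99.1 and 119 CPM. Cdk1, the mitotic kinase, rose by 5.94 ± 0.22 from 1.66 and 0.932 to 75.0 and 81.7 CPM. Mki67 went from 7.67 and 12.8 to 512 and 612 CPM (5.77 ± 0.29) and Top2a from 12.6 and 15.4 to 511 and 598 CPM (5.31 ± 0.17). The smallest change was that of Plk1, the polo-like kinase, from 4.94 and 4.91 to 64.3 and 76.2 CPM (3.83 ± 0.15).

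**Figure D2:**
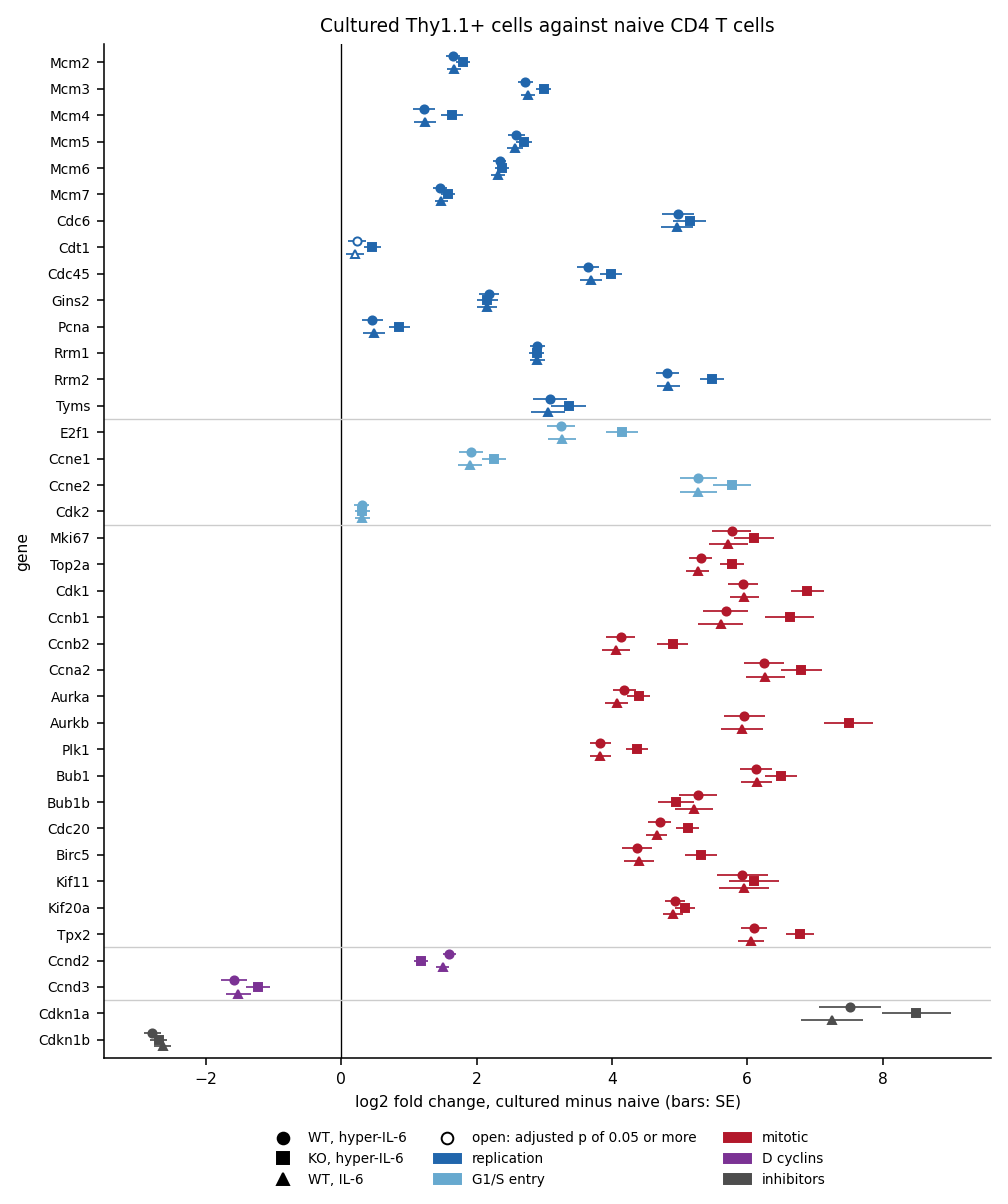
Log2 fold change (x axis, cultured minus naive, bars are SE) of each of the 38 genes (y axis, coloured by role) in wild-type cells with hyper-IL-6 (circles), Il6ra-deficient cells with hyper-IL-6 (squares) and wild-type cells with IL-6 (triangles); open marks did not pass an adjusted p of 0.05. The mitotic genes lie between 3.83 and 7.50, the replication genes between 0.20 and 5.48, and Ccnd3 and Cdkn1b lie below 0.

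The D cyclins and the inhibitors each split. Ccnd2 (cyclin D2) rose in wild-type cells with hyper-IL-6 from 461 and 536 to 1480 and 1550 CPM (log2 fold change 1.60 ± 0.10), while Ccnd3 (cyclin D3) fell from 458 and 301 to 120 and 134 CPM (-1.58 ± 0.19, adjusted p = 1.87e-05). Cdkn1b fell from 371 and 326 to 51.5 and 49.5 CPM (-2.79 ± 0.12). Cdkn1a rose from 0.880 and 0.0424 to 72.5 and 87.8 CPM (7.52 ± 0.46), a fold change that rests on few counts in the naive cells. In Il6ra-deficient cells the same 4 genes moved the same way, with Ccnd2 at 1.18 ± 0.10, Ccnd3 at -1.23 ± 0.18, Cdkn1b at -2.70 ± 0.12 and Cdkn1a at 8.5 ± 0.51. Of 12 other p53 target genes, 6 were higher and 3 lower in wild-type cells with hyper-IL-6, where 36.8% and 33.5% of all genes were. The 3 with the smallest adjusted p were Sesn1 at -3.35 ± 0.14, Gadd45a at -3.12 ± 0.22 and Zmat3 at 1.45 ± 0.12.

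Wider lists of the same pathways were counted in the same way. Of all genes, 36.8% were higher and 33.5% lower in wild-type cells with hyper-IL-6. Of 28 other replication genes, 24 were higher and 1 lower in wild-type cells with hyper-IL-6 (median log2 fold change 1.79). The smallest adjusted p were those of Uhrf1, which recruits the maintenance DNA methyltransferase (6.00 ± 0.0911 to 225 ± 21.9 CPM, mean ± SD, n = 2), Mcm10 (0.326 ± 0.161 to 54.7 ± 7.38 CPM) and the dUTPase Dut (27.5 ± 1.01 to 133 ± 5.45 CPM). Of 29 other mitotic genes, 27 were higher and 1 lower (median 4.89). Prc1, Espl1 and Kif2c had the smallest adjusted p, with log2 fold changes of 4.58 ± 0.14, 5.64 ± 0.18 and 7.04 ± 0.23. Of 21 other G1 regulators, 20 were tested, and 12 were higher and 6 lower. Among these the antiproliferative gene Btg2 fell by 3.86 ± 0.13 on the log2 scale, and Wee1, the kinase that restrains Cdk1, rose by 4.54 ± 0.18.

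Levels of different genes are compared here per length of exon. In naive wild-type cells the median replication gene stood at 13.2 CPM per kb of exon and the median mitotic gene at 0.639. With hyper-IL-6 the medians were 43.0 and 22.4. The highest replication genes per kb were Pcna at 67.8 in naive wild-type cells and Mcm3 at 97.1 with hyper-IL-6, and the highest mitotic gene with hyper-IL-6 was Cdc20, the activator of the anaphase-promoting complex, at 80.0. Before transfer the wild-type medians were 27.6 (replication) and 31.5 (mitotic), and in the colon they were 15.7 and 11.8.

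The mean log2 CPM of each role follows the same course library by library. Over the 14 replication genes it was 4.58 to 4.82 in the 4 naive libraries and 7.06 to 7.27 in the 6 cultured ones. Over the 16 mitotic genes it was 1.04 to 1.75 and 6.45 to 6.76. Replication minus mitotic was thus 2.94 to 3.54 in naive cells and 0.46 to 0.66 in cultured cells. It was -0.50 to -0.05 in the 4 libraries before transfer and 0.22 to 0.52 in the 6 colon libraries. These means were not tested, and the parts of the study were normalised apart, so a step from culture part to transfer part is not a measured change.

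**Figure D3:**
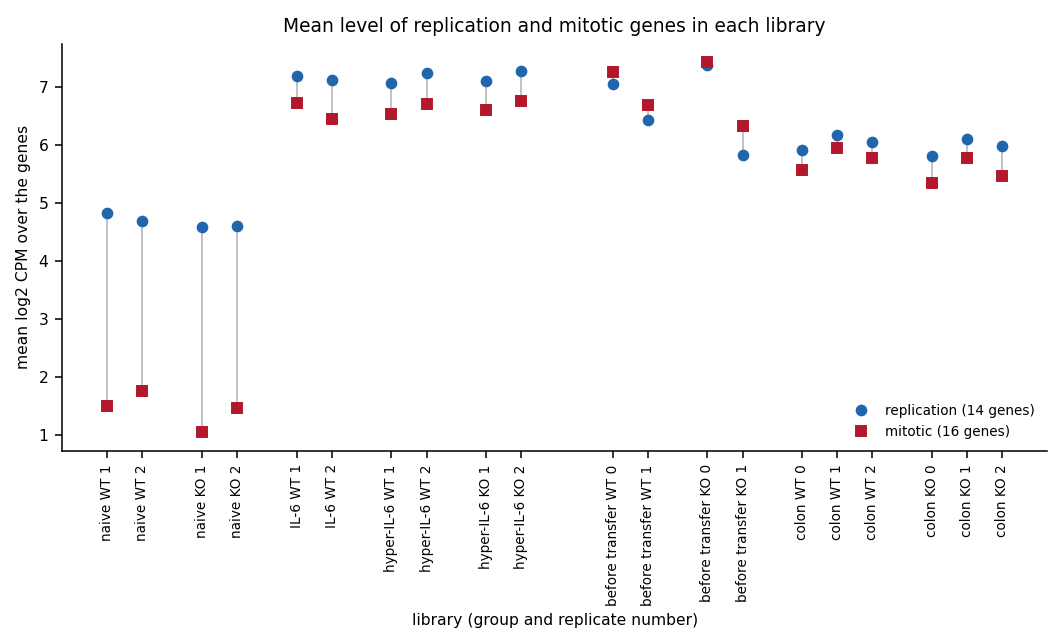
Mean log2 CPM (y axis, over 14 replication genes, circles, and 16 mitotic genes, squares) in each of the 20 libraries (x axis), with a grey line joining the means of 1 library. The gap is 2.94 to 3.54 in the naive libraries and closes in culture, the mitotic mean lies above the replication mean in the 4 libraries before transfer, and the mitotic mean of each of the 6 colon libraries (5.34 to 5.94) lies below all 4 libraries before transfer.

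The next question was how the cells recovered from the colon differed from the cells before transfer. Cycle genes were lower in the colon, the mitotic ones most often. In wild-type cells 21 of the 38 genes fell and none rose, and in Il6ra-deficient cells 23 fell and none rose, where 15.8% and 13.2% of the 14225 genes tested fell, 17.1% and 13.8% rose and 32.9% and 27% were called in either direction. The colon libraries lay wholly below those before transfer for 28 and 25 of the 38, against 26.6% and 27.9% of all genes; 28.4% and 31.3% of all genes lay wholly above, 55% and 59.1% in either direction. Of the 16 mitotic genes, 14 fell in the wild type and 15 in the Il6ra-deficient cells, with median log2 fold changes of -1.29 and -1.49. Among the replication genes, 3 and 5 of 14 fell, with medians of -0.79 and -0.95, and over all genes the medians were -0.02 and 0. These counts moved with single libraries: in Il6ra-deficient cells 12 replication and 15 mitotic genes fell without replicate 1 before transfer, and 0 and 5 without replicate 0. In wild-type cells 1 replication gene and 7 mitotic genes fell without replicate 0 before transfer. Leaving out colon replicate 0, 1 or 2 of the Il6ra-deficient cells gave 0 replication genes each time, and 11, 14 and 11 mitotic genes. Over all genes 1342 of 14160, 1252 of 14209 and 1173 of 14231 fell in these fits. The genes that fell in both genotypes numbered 20, out of the 21 and the 23, and the difference between the genotypes passed in none (below). In the 6 colon libraries the epithelial and myeloid markers were higher than before transfer (116 to 514 and 97.1 to 410 CPM summed), as were those of CD8, NK and gamma-delta T cells (148 to 326 CPM), and their part in these differences was not tested.

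Cdc20 showed the largest mitotic difference in wild-type cells. It was at 82.8 and 103 CPM before transfer and at 23.2, 27.0 and 14.5 CPM in the colon, so the groups did not overlap (log2 fold change -2.10 ± 0.34, adjusted p = 0.00124). In Il6ra-deficient cells it went from 105 and 48.8 to 19.6, 27.3 and 20.8 CPM (-1.77 ± 0.34, adjusted p = 0.00344). Aurkb and Aurka, the Aurora kinases of the chromosomal passenger complex and of the spindle poles, came next. Aurkb was at 98.7 and 98.8 CPM before transfer in wild-type cells and at 26.2, 34.6 and 26.9 CPM in the colon (-1.75 ± 0.29), and it went from 119 and 61.8 to 22.0, 34.6 and 25.2 CPM in Il6ra-deficient cells (-1.73 ± 0.29). On the log2 scale Aurka fell by 1.65 ± 0.32 in the wild type and by 1.82 ± 0.32 without Il6ra. Ccnb1 (cyclin B1) went from 30.6 and 26.1 to 8.44, 11.5 and 7.68 CPM in wild-type cells (-1.62 ± 0.32), and from 33.7 and 17.3 to 5.95, 7.57 and 9.17 CPM in Il6ra-deficient cells (-1.76 ± 0.32). Bub1b, the checkpoint protein BubR1, fell by 1.84 ± 0.36 in Il6ra-deficient cells, from 191 and 96.0 to 37.7, 45.2 and 37.2 CPM, and by 1.27 ± 0.36 in wild-type cells.

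The other mitotic genes that fell in both genotypes were Cdk1 (log2 fold changes -1.57 ± 0.36 in the wild type and -1.43 ± 0.36 without Il6ra), Ccna2 (-1.20 and -1.51), Ccnb2, a second cyclin B (-1.03 and -0.82), Plk1 (-1.37 and -1.60), Bub1 (-1.12 and -1.41), Birc5, the survivin subunit of the passenger complex (-1.36 and -1.21), Kif20a, a kinesin of cytokinesis (-1.31 and -1.63), Tpx2 (-1.14 and -1.47) and Top2a (-0.99 and -1.39). Kif11, the motor that separates the spindle poles, fell in Il6ra-deficient cells (-1.13 ± 0.31, adjusted p = 0.0209) and not in wild-type cells (-0.70 ± 0.31, adjusted p = 0.106). Mki67 passed in neither genotype. It was at 1470 and 375 CPM before transfer and 561, 784 and 1260 CPM in the colon in wild-type cells (-0.09 ± 0.54, adjusted p = 0.911), and at 1440 and 635 against 522, 776 and 545 CPM in Il6ra-deficient cells (-0.75 ± 0.53, adjusted p = 0.337). In wild-type cells its low value before transfer and its high value in the colon came from the 2 libraries that stood apart. The Il6ra-deficient library of experiment 2 before transfer was also the lower of its group, at 635 against 1440 CPM. Mki67 (10061 bases), Top2a (9013) and Kif11 (7461) have the longest exon sums of the mitotic genes. The part of exon length in their wild-type differences was not tested. With both libraries left out, Mki67 had 1 wild-type library before transfer (experiment 1) at 1470 and 2 in the colon at 561 and 784 CPM (-1.17). These 2 colon libraries come from experiments 1 and 2, so this value mixes stage with experiment.

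Fewer replication genes than mitotic genes passed. Mcm6 was at 434 and 358 CPM before transfer and at 189, 217 and 216 CPM in the colon in wild-type cells (-0.93 ± 0.23, adjusted p = 0.0107), and at 450 and 263 against 193, 201 and 200 CPM in Il6ra-deficient cells (-0.85 ± 0.23, adjusted p = 0.0187). Mcm7 (-1.0 and -1.05) and Gins2 (-1.52 and -1.36) also fell in both, though in Il6ra-deficient cells their groups overlapped, and Mcm3 (-1.30 ± 0.40) and Cdc45 (-1.25 ± 0.38) in Il6ra-deficient cells. Mcm2 did not pass: it was at 219 and 93.3 CPM before transfer and 117, 115 and 104 CPM in the colon in wild-type cells (-0.48 ± 0.44), and at 279 and 81.2 against 108, 121 and 108 CPM in Il6ra-deficient cells (-0.68 ± 0.44). In each genotype 1 library before transfer lay above the colon range and 1 below it. Pcna (-0.25 ± 0.38 and -0.07 ± 0.38), Tyms (-0.29 ± 0.43 and -0.48 ± 0.43) and Cdt1 (-0.47 ± 0.31 and -0.01 ± 0.31) did not pass either. The other replication genes that did not pass in wild-type cells lay between -1.04 (Mcm3) and -0.45 (Mcm4), and those in Il6ra-deficient cells between -1.16 (Rrm2) and -0.57 (Mcm4).

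Of the G1/S genes, Cdk2 and Ccne1 fell in both genotypes. Cdk2 was at 109 and 111 CPM before transfer and at 49.7, 56.1 and 54.6 CPM in the colon in wild-type cells (-1.04 ± 0.17, adjusted p = 0.00126), and at 122 and 98.1 against 48.2, 52.5 and 51.5 CPM in Il6ra-deficient cells (-1.12 ± 0.17, adjusted p = 0.000823). Its SE was the smallest of the 38 in both genotypes. Ccne1 fell by 0.94 ± 0.23 and 0.77 ± 0.23 on the log2 scale. E2f1 (-0.96 ± 0.36, adjusted p = 0.0587, and -1.05 ± 0.36, adjusted p = 0.05) and Ccne2 (-1.16 ± 0.46 and -1.19 ± 0.46) did not pass.

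The inhibitors parted again, now with Cdkn1a the one that fell. Cdkn1a was at 131 and 161 CPM before transfer and at 14.9, 30.1 and 24.2 CPM in the colon in wild-type cells, the largest difference among the 38 (-2.66 ± 0.33, adjusted p = 0.000258). In Il6ra-deficient cells it was at 113 and 144 against 19.0, 33.8 and 37.9 CPM (-2.09 ± 0.33, adjusted p = 0.00105). Cdkn1b was at 298 and 398 against 378, 367 and 403 CPM (0.13 ± 0.28) and at 269 and 562 against 377, 370 and 371 CPM (-0.16 ± 0.28), so the groups overlapped. Ccnd2 fell in wild-type cells (945 and 402 to 331, 257 and 237 CPM, -1.29 ± 0.35) and was at -0.92 ± 0.35 (adjusted p = 0.0792) in Il6ra-deficient cells. Ccnd3 was at -0.80 ± 0.31 (adjusted p = 0.067) and 0.14 ± 0.31. Another 12 p53 targets gave 5 that fell in the wild type, 4 that fell without Il6ra and none that rose. Over all genes 15.8% and 13.2% fell, and 17.1% and 13.8% rose. Phlda3 went from 22.8 ± 14.2 to 1.12 ± 0.536 CPM in wild-type cells (log2 fold change -4.33 ± 0.48, n = 2 and 3, adjusted p = 0.000109) and from 15.8 ± 0.374 to 3.54 ± 0.460 CPM in Il6ra-deficient cells (-2.15 ± 0.44). Sesn2 (-1.18 ± 0.26 and -1.02 ± 0.26) and Zmat3 (-0.75 ± 0.18 and -0.60 ± 0.18) had the next smallest adjusted p.

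**Figure D4:**
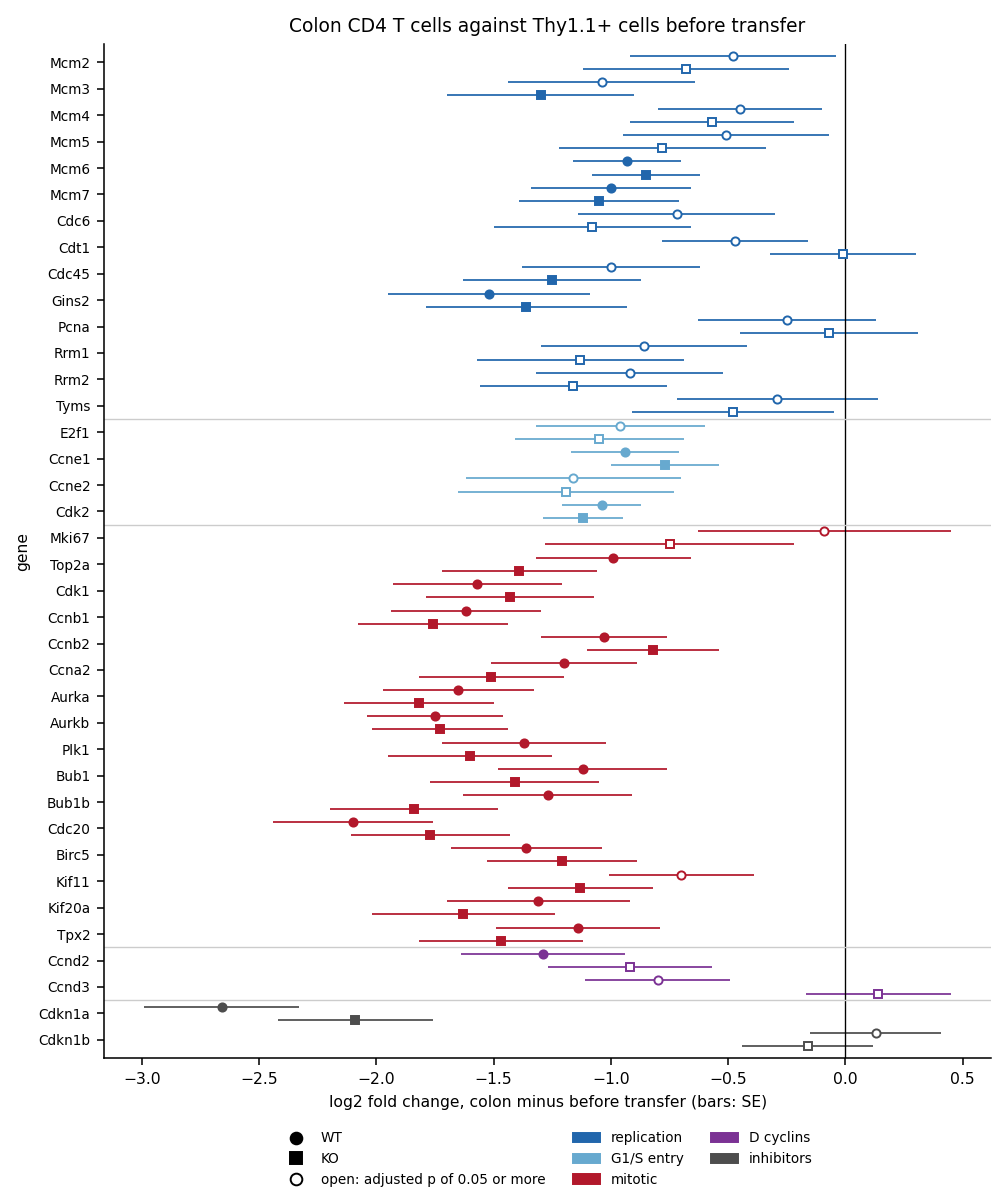
Log2 fold change (x axis, colon minus before transfer, bars are SE) of each of the 38 genes (y axis, coloured by role) in wild-type (circles) and Il6ra-deficient cells (squares); open marks did not pass an adjusted p of 0.05. Filled marks fill most of the mitotic block, between -2.10 and -0.82, while most of the replication marks are open, and Cdkn1a lies farthest to the left.

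Wider lists were counted here too. Over all genes 15.8% fell and 17.1% rose in the wild type, and 13.2% fell and 13.8% rose without Il6ra. Of 29 other mitotic genes, 16 fell in the wild type, 20 fell without Il6ra and none rose (medians -0.95 and -1.31). Ube2c, the ubiquitin-conjugating enzyme of the anaphase-promoting complex, went from 144 ± 38.7 to 41.9 ± 3.96 CPM in wild-type cells (-1.78 ± 0.29) and from 105 ± 47.0 to 35.0 ± 8.14 CPM in Il6ra-deficient cells (-1.58 ± 0.29). Of 28 other replication genes, 8 and 7 fell and none rose (medians -0.71 and -0.72), with Dut (-1.49 ± 0.25 and -1.29 ± 0.25), the thymidine kinase gene Tk1 (-1.08 ± 0.25 and -1.18 ± 0.25) and Gins1 (-1.45 ± 0.37 and -1.75 ± 0.38) at the smallest adjusted p. The 21 other G1 regulators moved both ways, 7 higher and 3 lower in the wild type, and 5 and 4 without Il6ra. Rbl2, the RB-family protein p130 of the DREAM complex, was at 144 and 102 CPM before transfer and 562, 561 and 667 CPM in the colon in wild-type cells (2.28 ± 0.25, adjusted p = 0.000103). It was at 133 and 188 against 614, 521 and 521 CPM in Il6ra-deficient cells (1.78 ± 0.24, adjusted p = 0.000442). Ccnd1 (cyclin D1), which epithelial cells also express, went from 0.0939 and 0.149 to 11.1, 5.56 and 2.42 CPM in wild-type cells (5.64 ± 0.83). Its highest value lay in the colon library with the highest epithelial sum (514 CPM). Myc, the growth regulator, fell in wild-type cells from 207 and 158 to 35.4, 41.9 and 50.1 CPM (-2.10 ± 0.33) and in Il6ra-deficient cells as well (-1.98 ± 0.33). Cdkn2a, which encodes the p16 and Arf inhibitors, rose in Il6ra-deficient cells from 0.777 and 0.128 to 8.32, 7.66 and 9.79 CPM (4.21 ± 0.69) and in wild-type cells as well (3.42 ± 0.67).

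The size of the difference was unequal in experiments 1 and 2, and so were the levels before transfer. In Il6ra-deficient cells the replication mean before transfer was 7.37 log2 CPM in experiment 1 and 5.82 in experiment 2, and in wild-type cells 7.05 and 6.42. The mitotic means were 7.42 and 6.33, and 7.26 and 6.69. The colon libraries lay closer together, at 5.81 to 6.17 (replication) and 5.34 to 5.94 (mitotic) over both genotypes and experiments. Within experiment 1 the median replication gene was lower in the colon (log2 difference -1.25 in the wild type and -1.66 without Il6ra), and within experiment 2 the median was -0.24 in wild-type cells (5 genes up and 8 down), while in Il6ra-deficient cells it was 0, with 7 genes up and 7 down. The mitotic medians were -1.77 and -2.14 in experiment 1 and -0.89 and -0.76 in experiment 2. In experiment 2 14 of the 16 mitotic genes were down in the wild type and 15 of 16 without Il6ra. Those that went up were Mki67 and Kif11 in wild-type cells (1.41 and 0.04) and Mki67 in Il6ra-deficient cells (0.03). Both wild-type libraries that stood apart belong to experiment 2, and their differences from their replicates went with exon length. Each experiment has 1 library before transfer per genotype, so these differences carry no test. The mitotic medians were thus negative in both experiments, while the replication median of Il6ra-deficient cells was negative in experiment 1 and 0 in experiment 2. That median of 0 hides an uneven spread. The replication mean of Il6ra-deficient cells in experiment 2 was 5.82 before transfer and 6.10 and 5.98 in the colon. Pcna went up from 80.8 to 182 and 161 CPM there, and Mcm6 went down from 263 to 201 and 200 CPM.

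**Figure D5:**
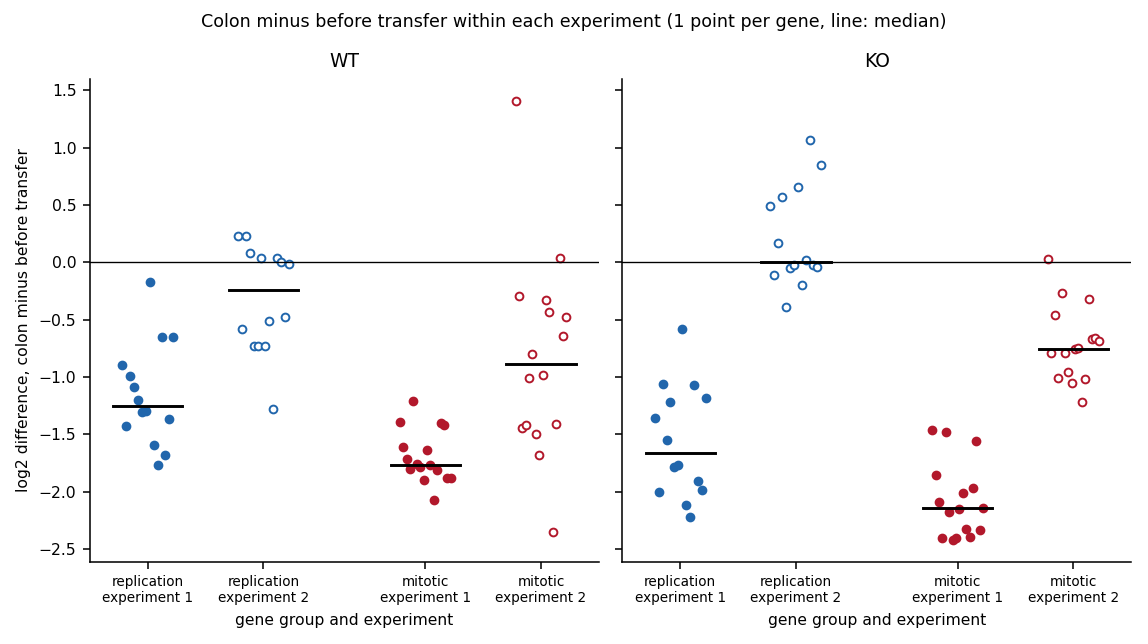
Log2 difference, colon minus before transfer (y axis), of each replication and mitotic gene (points; black line, median) within experiment 1 (filled) and experiment 2 (open), for wild-type (left) and Il6ra-deficient cells (right). In experiment 2, 7 replication points of the Il6ra-deficient cells lie above 0 and 7 below, those above reaching farther from it. Of the mitotic points, 15 of 16 lie below 0.

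The counts of calls moved with single libraries, and those over all genes did as well. More genes in all passed without wild-type replicate 0 before transfer than with it, and fewer without either Il6ra-deficient replicate before transfer. These fits leave 1 library in a group, and counts of the 38 and of all genes did not always move together. Without Il6ra-deficient replicates 0 and 2 of the colon, 1342 of 14160 and 1173 of 14231 genes fell. Without Il6ra-deficient replicate 0 before transfer, 7 of the 38 genes fell in Il6ra-deficient cells, without replicate 1 before transfer 32 fell, 9 of them new calls (Mcm2, Mcm4, Mcm5, Cdc6, Rrm1, Rrm2, Tyms, E2f1 and Ccne2), and without replicates 0 and 2 of the colon 14 and 13 fell. Without wild-type replicate 0 before transfer, 12 fell in wild-type cells. With both libraries that stood apart left out, the wild-type medians were -1.64 (mitotic) and -1.15 (replication). Kif11 then passed (-1.21), and Mcm7, Gins2, Ccne1, Cdk1, Ccnb2 and Birc5 no longer did, with log2 fold changes of -1.66 to -0.88. This leaves 1 wild-type library before transfer, from experiment 1, where levels before transfer were higher. The colon libraries that stay come from experiments 1 and 2, so these medians mix stage with experiment. A term for the experiment gave 19 and 20 genes (2353 and 1977 of 14225 fell over all genes). That term ended the calls of Mcm7, Top2a and Bub1 in wild-type cells, where Ccnd3 passed. In Il6ra-deficient cells that term ended those of Mcm3, Mcm7, Cdc45 and Gins2, and Ccnd2 passed. A block for the library numbers splits experiment 2, to which numbers 1 and 2 both belong. This block gave 16 and 18 genes (1807 and 1539 over all genes). In wild-type cells it ended the calls of Mcm7 (log2 fold change -0.97, edgeR adjusted p = 0.0792), Top2a (-0.90), Bub1 (-1.0), Kif20a (-1.18) and Tpx2 (-1.15), with adjusted p of 0.0519 to 0.0899. In Il6ra-deficient cells it ended those of Mcm3 (-1.15), Mcm7 (-0.97), Cdc45 (-1.26), Gins2 (-1.24), Ccne1 (-0.73) and Ccnb2 (-0.86), with adjusted p of 0.0563 to 0.105, and Ccnd2 passed (-0.88, adjusted p = 0.044). These fold changes stand beside -1.30, -1.05, -1.25, -1.36, -0.77 and -0.82 without the block for the first 6, in the same order.

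Between the genotypes, no cycle gene passed in any state. In the colon 0 of 38 passed, with log2 fold changes (Il6ra-deficient minus wild type) of -0.50 to 0.61 and SE of 0.15 to 0.48, and none of the 38 had an unadjusted p under 0.05. There edgeR called 22 of 14225 genes, 0.155% (0.0633% higher, 0.0914% lower). DESeq2 called none of the 38 either. With a block for the library numbers within each stage edgeR again called 0 of the 38, and 94 of 14225 genes. Of the 16 mitotic genes 15 were on the lower side, with a median of -0.28, and the replication median was -0.09. Without both libraries that stood apart, again 0 of 38 passed, all 16 mitotic genes were on the lower side (median -0.23, Mki67 at -0.13), and the replication median was -0.08. Mki67 was at 561, 784 and 1260 CPM in wild-type and 522, 776 and 545 CPM in Il6ra-deficient colon cells (-0.50 ± 0.48), and the high value lay in the library that stood apart. Cdc20 was the 1 mitotic gene on the higher side (0.06 ± 0.31). The groups did not overlap for 3 genes, all lower: Mcm3 (103, 107 and 113 against 88.8, 93.7 and 95.5 CPM), Cdc6 (16.7, 19.3 and 19.1 against 14, 16.1 and 16.3 CPM) and Aurka (18.9, 22.1 and 18.3 against 14.2, 18.3 and 14.3 CPM). For Aurka the lowest wild-type and the highest Il6ra-deficient library differ only beyond the digits shown. Over all genes 7.17% were lower and 8.6% higher without overlap, 15.8% together. These overlaps take the libraries as unpaired, though same-numbered colon libraries of the genotypes deviated together. The D cyclins lay on the higher side, with Ccnd2 at 331, 257 and 237 CPM in wild-type and 546, 313 and 317 CPM in Il6ra-deficient cells (0.51 ± 0.32), and Ccnd3 at 222, 171 and 104 against 316, 223 and 222 CPM (0.61 ± 0.28). The highest wild-type and the lowest Il6ra-deficient Ccnd3 library both stood at 222 CPM, and both genes had an adjusted p of 1. Within the experiments the mitotic median was -0.22 in experiment 1 and -0.30 in experiment 2.

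Before transfer 0 of 38 passed as well (edgeR called 1 gene of 14225, 0.00703%), with log2 fold changes of -0.47 to 0.25, none of the 38 at an unadjusted p under 0.05 and none called by DESeq2. Without both libraries that stood apart 18 changed sign, and all 16 mitotic and 13 of 14 replication genes were lower in Il6ra-deficient cells (both medians -0.27). That fit sets 1 wild-type library of experiment 1 against Il6ra-deficient libraries of experiments 1 and 2, so it mixes genotype with experiment. No member's libraries were without overlap between the genotypes, while 8.29% of all genes lay wholly higher and 8.06% wholly lower in Il6ra-deficient cells. The experiments pointed in opposite directions: all 14 replication genes were higher in Il6ra-deficient cells in experiment 1 (median 0.34) and all 14 lower in experiment 2 (median -0.61). Mcm2 was at 279 against 219 CPM in experiment 1 and at 81.2 against 93.3 CPM in experiment 2. With 1 library per genotype and experiment, this reversal was not tested. The interaction of genotype with stage passed for 0 of 38 genes (0% of all), and its estimates lay between -0.66 and 0.94. None of the 38 had an unadjusted edgeR p under 0.05, and DESeq2 called none. Without both libraries that stood apart the estimates lay between -0.47 and 0.76, and 21 of the 38 changed sign. The same mix of genotype with experiment before transfer enters that fit.

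In naive cells 0 of 38 passed (1 gene of 14926, 0.0067%). An unadjusted edgeR p under 0.05 was found for 11 of the 38, 10 of them lower in Il6ra-deficient cells. Over all 14926 genes tested, 1554 had one, in either direction. The median of the 16 mitotic genes was -0.44, with 15 on the lower side, against 0 over all genes. The genotypes did not overlap for 12 genes that were lower and 1 that was higher, where 18.9% and 18.6% of all genes did not. E2f1 was at 6.50 and 4.07 CPM in wild-type and 2.07 and 3.17 CPM in Il6ra-deficient naive cells (-0.98 ± 0.26, adjusted p = 0.313). DESeq2 called this gene alone of the 38 (-0.99, adjusted p = 0.0202). Aurkb was at 0.538 and 1.65 against 0.568 and 0.274 CPM (-1.48 ± 0.58, adjusted p = 0.419), so these groups overlapped. Plk1 was at 4.94 and 4.91 against 3.56 and 3.44 CPM (-0.49 ± 0.18, adjusted p = 0.406). Ccnd2 lay the other way, at 461 and 536 against 640 and 630 CPM (0.35 ± 0.10, adjusted p = 0.35). Without a filter on low counts edgeR called 4 of the 38 (E2f1, Top2a and Aurkb lower, Ccnd2 higher), and without naive wild-type replicate 2 it called 4 that were not all the same (Mcm4, Pcna, E2f1 and Ccnd2).

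In culture the genotypes lay closest. With hyper-IL-6, 0 of 38 passed (0% of all genes), with log2 fold changes of -0.11 to 0.18 and SE of 0.09 to 0.27, none of the 38 at an unadjusted p under 0.05 and none called by DESeq2. Mki67 was at 512 and 612 CPM in wild-type and 559 and 496 CPM in Il6ra-deficient cells, Ccna2 at 147 and 166 against 157 and 184 CPM, and Mcm6 at 365 and 402 against 377 and 395 CPM. The groups overlapped for all 3, and for 35 of the 38, while 31.2% of all genes did not overlap. Hyper-IL-6 at 63 ng/ml against IL-6 at 20 ng/ml in wild-type cells also gave 0 of 38 (0% of all genes), with log2 fold changes of -0.15 to 0.27, none at an unadjusted p under 0.05 and none by DESeq2. The doses differ, so the cytokines are not compared at a matched dose. The interaction of genotype with culture passed for 0 of 38 (0% of all genes), with estimates of -0.42 to 1.54, and DESeq2 called none. An unadjusted edgeR p under 0.05 was found for 1267 of the 14926 genes tested and for 8 of the 38. Of these 8, 7 had a positive estimate, that is a larger rise in Il6ra-deficient cells, and Ccnd2 a negative one. The estimate takes in the naive difference between the genotypes, from the same naive libraries (mitotic median -0.44). It is thus not a result apart from the naive comparison.

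Some counts could be off where exons overlap a neighbour on the other strand, since no source used here gives the strand setting of the counting. Reads ambiguous between genes (0.526% to 0.844% per library) are not in the gene counts. Shared bases could thus lower a count as well as raise it. In GENCODE M21 the exons of Gins2 share 2758 of 4097 bases with Gse1, those of Kif20a 1271 of 4338 with Cdc23, those of Ccne2 609 of 3495 with Ints8 and those of Ccna2 510 of 4083 with Exosc9. Ccnd3 shares 361 bases with Bysl and Mcm7 321 with Ap4m1. The levels of Gins2 and Kif20a are the most uncertain for this reason.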

How the data were processed

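RNA-seq libraries (20) were made from sorted CD4 T cells of mice with a stranded mRNA kit. The authors deposited 1 table of raw read counts per gene and library (HTSeq 0.7.2 and STAR 2.5.3 on GRCm38/mm10, with SAMtools 0.1.18, DESeq2 1.18.1 and R 3.4.3, per the submitters' processing notes). No source used here gives the annotation release or the strand setting. The 5 summary lines per file were left out of library sizes: reads in no gene made up 18.1% to 31.9% of the sum of gene, no-feature and ambiguous counts. Of 39179 gene IDs, 37693 had a symbol in GENCODE M21.

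The members and lists were chosen with earlier results of these data known. Counts were fitted with edgeR 4.0.16 (R 4.3.3, limma 3.58.1): TMM scaling, filterByExpr by group (minimum count 10), quasi-likelihood F test on group alone, Benjamini-Hochberg adjustment over all genes tested, threshold 0.05. The transfer part (10 libraries, 4 groups, 14225 genes, 6 residual degrees of freedom) and the culture part (10 libraries, 5 groups, 14926 genes, 5 residual degrees of freedom) were fitted apart, in 12 comparisons. All 38 members passed the filter in both. Levels are TMM-scaled CPM, and ± after a level is SD, after a log2 fold change SE. Replicate counts differed beyond sampling noise (mean chi-square per gene 6.38 to 219). Nothing says that the replicates of the culture part came from separate mice, and the p-values there reflect the spread among libraries, which may be technical. All members are named; from each wider list at most 3 genes per comparison with the smallest adjusted p, with the other genotype's value beside it where it passed too.

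In the transfer part the library numbers mark the experiment, per the labels. Same-numbered libraries of the 2 genotypes deviated together within a stage (correlations 0.43 before transfer and 0.58, 0.237 and 0.183 in the colon), but not across stages (-0.143 to 0.0793). Alternatives were RLE size factors, no filter, DESeq2 1.42.0, a replicate block, an experiment term, the compared groups alone, each library left out, and, added after seeing the data, a block within stage and both libraries that stand apart left out. Sequences are from RefSeq, GRCm38.p6. Figures were drawn with matplotlib 3.10.9.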

Additional observations from a re-analysis of the deposited data

How the results depend on the processing

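Counts of the 38 genes that passed moved as follows under other settings. For colon against before transfer, 21 wild-type and 23 Il6ra-deficient genes became 21 and 24 with RLE size factors, 27 and 29 without a filter on low counts, 24 and 28 with DESeq2, 16 and 18 with the replicate block, 19 and 20 with an experiment term, and 21 and 19 with the compared groups alone. Over all genes, 4682 and 3836 calls became 4685 and 3839 with RLE size factors and 5006 and 4086 without the filter. They became 5433 and 4466 with DESeq2, 3999 and 3422 with the replicate block and 4979 and 4157 with the experiment term. With the compared groups alone they became 3183 and 4493. Leaving out 1 library gave 12 (without before-transfer replicate 0) to 20 genes in wild-type cells and 7 (without before-transfer replicate 0) to 32 (without before-transfer replicate 1) in Il6ra-deficient cells; no gene that passed changed sign in these fits. In naive cells the genotype comparison gave 4 genes without the filter, 1 with DESeq2 and 0 to 4 with 1 library left out. The genotype by culture interaction gave 2 (E2f1 and Aurkb) without the filter and 0 to 2 with 1 library left out (2, Mcm4 and E2f1, without naive wild-type replicate 2). Against naive cells, 35 to 37 genes passed with 1 library left out. In the culture part same-numbered libraries shared only a number (correlations -0.164 to 0.156), and the replicate block changed no call of the 38 genes there. With 1 library left in a group, that library is assumed to vary like the others. Over all genes, edgeR's 22 colon genotype calls became 120 without the filter, 133 with DESeq2, 39 with the replicate block, 94 with the block within stage, 42 with the experiment term, 108 with the compared groups alone and 0 to 8 with 1 library left out. The 1 gene before transfer became 17, 24, 5 (block within stage), 2 and 0, and 0 to 1152 with 1 library left out (1152 without wild-type replicate 0). The 1 naive gene became 439 without the filter, 91 with DESeq2, 5 with the compared groups alone, 0 with the replicate block and 0 to 902 with 1 library left out (902 without wild-type replicate 2). From 0, the hyper-IL-6 genotype comparison came to 74 and 3, the cytokine comparison to 36 and 1, the interaction with stage to 13 and 12 and the interaction with culture to 271 and 45, without the filter and with DESeq2. Both interactions rose with 1 of those libraries left out, to 597 without wild-type replicate 0 before transfer and to 392 without naive wild-type replicate 2. The cause of these shifts was not tested.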
